A study of Homo sapiens with 9 samples.

Results

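The tubulin isotypes described here are 10 human genes, TUBA1A, TUBA1B, TUBA1C, TUBB, TUBB2A, TUBB2B, TUBB3, TUBB4B, TUBB6 and TUBG1, taken by symbol from the 60683 genes counted in each library. The 9 libraries were made from total RNA of HEK293T, an established line of human embryonic kidney origin, and form 3 groups of 3 replicates. Parental cells carried no integrated construct. Clone 15 and clone 37 were each grown from a sorted cell after piggyBac transposition and carried both ATG-(CAG)60-Myc-NLuc, a luciferase reporter with 60 CAG units, and ATG-(CAG)0-Myc-FLuc, a luciferase reporter without them. Both integrated constructs were expressed at a low level in clone 15 and at a high level in clone 37. Each reporter level was represented by 1 clone, so what the reporter does and what differs between clones of this line cannot be told apart. Clone 15 was read at 100 bp and the other groups at 75 bp, so an effect of read length cannot be told apart from one of clone 15. The labels do not say whether replicates came from separate cultures, so the p values below measure the spread between these libraries, which may be technical.

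Microtubules are hollow polymers of α-tubulin and β-tubulin heterodimers, and cells make several isotypes of each from separate genes. The isotypes have nearly the same folded body and differ mostly in the acidic C-terminal tail, which lies on the outside of the microtubule, carries polyglutamylation and is read by motors and severing enzymes. γ-Tubulin, encoded by TUBG1, sits in the γ-tubulin ring complex that nucleates microtubules, and cells hold their tubulin mRNA levels in check through TTC5, which binds newly made α- and β-tubulin chains at the ribosome and triggers decay of the mRNA.

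The ends of the β and γ coding sequences are shown because they encode the tail and because a read from a stretch that isotypes share cannot be assigned to either. Each line gives the last 60 coding bases with the stop codon, 5′ to 3′ in the GENCODE 29 transcript on GRCh38, and capitals mark in-frame GAA and GAG, the codons for glutamate.
TUBB: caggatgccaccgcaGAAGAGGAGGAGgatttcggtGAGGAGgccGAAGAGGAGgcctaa
TUBB2A: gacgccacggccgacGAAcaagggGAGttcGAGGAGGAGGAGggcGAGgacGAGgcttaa
TUBB2B: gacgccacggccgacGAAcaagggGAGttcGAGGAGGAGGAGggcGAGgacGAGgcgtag
TUBB3: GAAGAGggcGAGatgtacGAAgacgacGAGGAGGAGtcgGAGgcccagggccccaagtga
TUBB4B: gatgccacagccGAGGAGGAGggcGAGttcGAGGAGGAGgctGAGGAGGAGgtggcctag
TUBB6: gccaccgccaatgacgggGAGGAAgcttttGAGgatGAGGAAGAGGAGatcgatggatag
TUBG1: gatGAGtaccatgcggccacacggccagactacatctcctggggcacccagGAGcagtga
Of the 19 codons before the stop, 10 encode glutamate in TUBB4B, 9 in TUBB, 8 each in TUBB2A, TUBB2B and TUBB3, 7 in TUBB6 and 2 in TUBG1. TUBB2A and TUBB2B differ at 2 of these bases, neither of which changes the encoded tail.

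These stretches lie within the coding exons at chr6:30724338-30724397 (TUBB, plus strand), chr6:3153863-3153922 (TUBB2A, minus) and chr6:3224751-3224810 (TUBB2B, minus). The others lie at chr16:89935745-89935804 (TUBB3, plus), chr9:137243497-137243556 (TUBB4B, plus), chr18:12326071-12326130 (TUBB6, plus) and chr17:42614982-42615041 (TUBG1, plus). TUBB2A and TUBB2B lie near each other on chromosome 6, and the 3 α genes on chromosome 12. At the other end of the coding sequence, the opening β codons that encode the peptide recognised by TTC5 are ATGAGGGAAATC in TUBB and TUBB4B, ATGAGGGAGATC in TUBB3 and TUBB6, ATGCGCGAGATC in TUBB2A and ATGCGTGAGATC in TUBB2B. TUBG1 begins with ATGCCGAGGGAA.

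Shared sequence differed widely between the isotypes and bears on how well each count can be trusted. The closest pair was TUBB2A and TUBB2B, whose coding sequences are 98.1% identical with an unbroken identical run of 725 bases, longer than any read used here. TUBA1A and TUBA1B are 97.2% identical with a run of 221 bases, and TUBA1B and TUBA1C are 96.8% identical with a run of 326 bases. TUBB shares no run longer than 35 bases with another β member. Of all 75-base words in the main transcript, 60.4% in TUBB2A, 49.5% in TUBB2B, 48.4% in TUBA1B and 36.6% in TUBA1A also occurred in the transcripts of another gene, against 17.0% in TUBA1C, 8.44% in TUBB, 6.55% in TUBB3, 5.37% in TUBB4B and none in TUBB6. With 100-base words the shares were 56.4%, 46.2%, 37.2%, 26.6%, 11.5%, 5.10%, 5.15% and 2.86% for those genes in that order, and again none in TUBB6. A larger part of the words of each member but TUBB6 was thus unshared at the read length of clone 15. Both mates of a pair help to place it, so fewer pairs than words are shared. For TUBG1, whose near copy is TUBG2, the shares were 20.4% and 15.0%. The counts of TUBA1A, TUBA1B, TUBA1C, TUBB2A, TUBB2B and TUBG1 are therefore uncertain as levels, since reads from shared stretches were left out. TUBB, TUBB3, TUBB4B and TUBB6 had the lowest shared percentages.

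**Figure D1:**
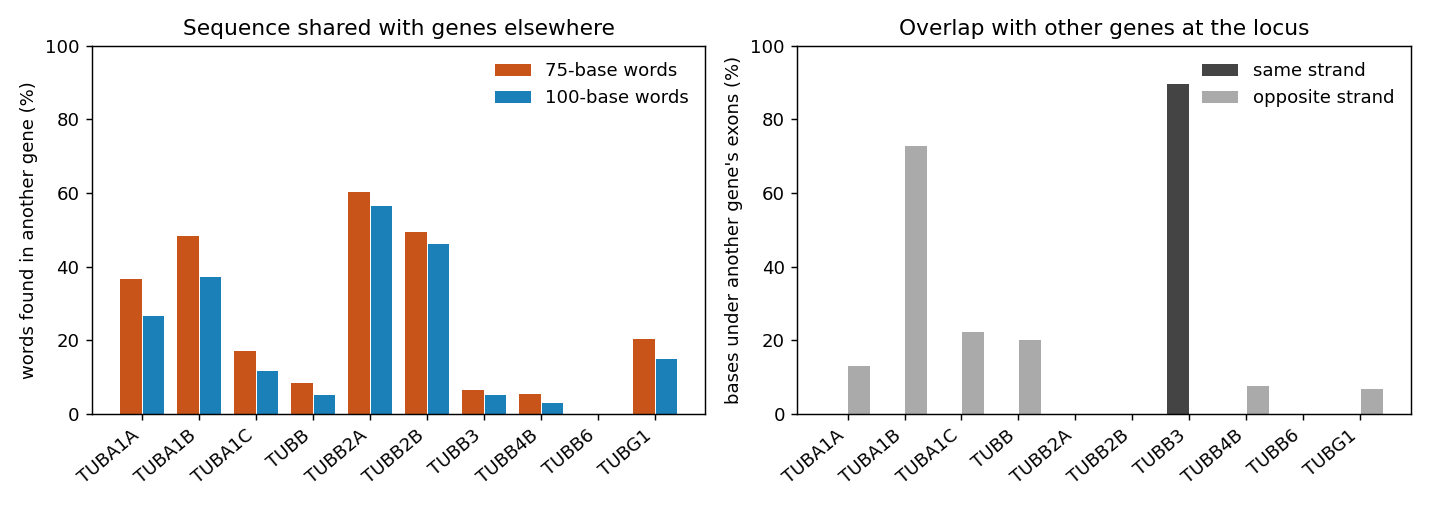
Left, percentage of 75-base (orange) and 100-base (blue) words of each member's main transcript that occur in transcripts of a gene elsewhere. Right, percentage of the main transcript's bases that lie under exons of another gene on the same (dark) or opposite (light) strand; TUBB2A has the highest shared percentage (60.4%) and TUBB3 is the member with same-strand overlap (89.5%).

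Gene counts per library summed to between 10334090 and 38093340, with the 3 clone 15 libraries the deepest. Reads that mapped to several places made up 4.59% to 5.98% of pairs in clone 15, 10.4% to 11.7% in clone 37 and 11.9% to 13.9% in parental cells. Parental replicate 2 stood apart: 19.2% of its pairs fell outside annotated exons against 26.4% and 28.8% in the other parental libraries, and the members lay on average 0.128 higher there on the log2 scale than the parental mean. Of 10 markers of HEK293T cells, 9 had a mean of at least 1 CPM (gene counts scaled to equal library totals) in every group, while PAX8 had 0 counts in all but 1 library. Markers of fibroblasts summed to 58.6 to 174 CPM in clone 15, 38.3 to 41.8 in parental cells and 21.1 to 21.9 in clone 37. The HEK293T markers summed to 4245 to 4398 CPM in clone 15, 1468 to 1779 in parental cells and 1103 to 1171 in clone 37. Of that sum the neurofilament gene NEFM held 2646 to 2810 CPM in clone 15. Against parental cells the test called 3 of 9 higher and 2 lower for clone 15. For clone 37 it called 3 higher and 4 lower. COL1A2, a collagen of fibroblasts, was at 0 in the 6 parental and clone 37 libraries and at 5.59, 12.2 and 56.8 CPM in clone 15 replicates 1, 2 and 3, and was not called (adjusted p = 0.171). Of the 4 fibroblast markers tested in clone 15 against parental cells, 0 were called higher and 1 lower. In clone 37 against parental cells 3 were tested, and all 3 were called lower. The part of these markers in the results was not tested. In bulk RNA a change in the number of cells of a type and one in RNA per cell cannot be told apart. Without clone 15 replicate 3 the members called in clone 15 against parental cells still numbered 7, beside 8162 of 17658 genes called.

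TUBB and TUBA1B supplied most tubulin mRNA in every group. To compare genes, CPM was divided by the length of the merged annotated exons in kb. In parental cells TUBB stood at 496 ± 34.3 CPM per kb (SD, n = 3), TUBA1B at 316 ± 25.5 and TUBB4B at 111 ± 7.76. TUBG1 (43.6 ± 1.97) and TUBA1C (40.4 ± 3.58) followed, with libraries that overlapped. TUBB2B (27.2 ± 3.57) and TUBA1A (26.8 ± 2.30) also overlapped, as did TUBB6 (11.2 ± 0.724) and TUBB2A (10.2 ± 1.28). TUBB3 was last at 0.077 ± 0.012. The first 3 places were the same in both clones, and the order changed only among neighbours further down. In clone 15 TUBA1A passed TUBB2B, whose libraries overlapped those of TUBB6. In clone 37 TUBA1C and TUBG1 changed places, with overlapping libraries.

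**Figure D2:**
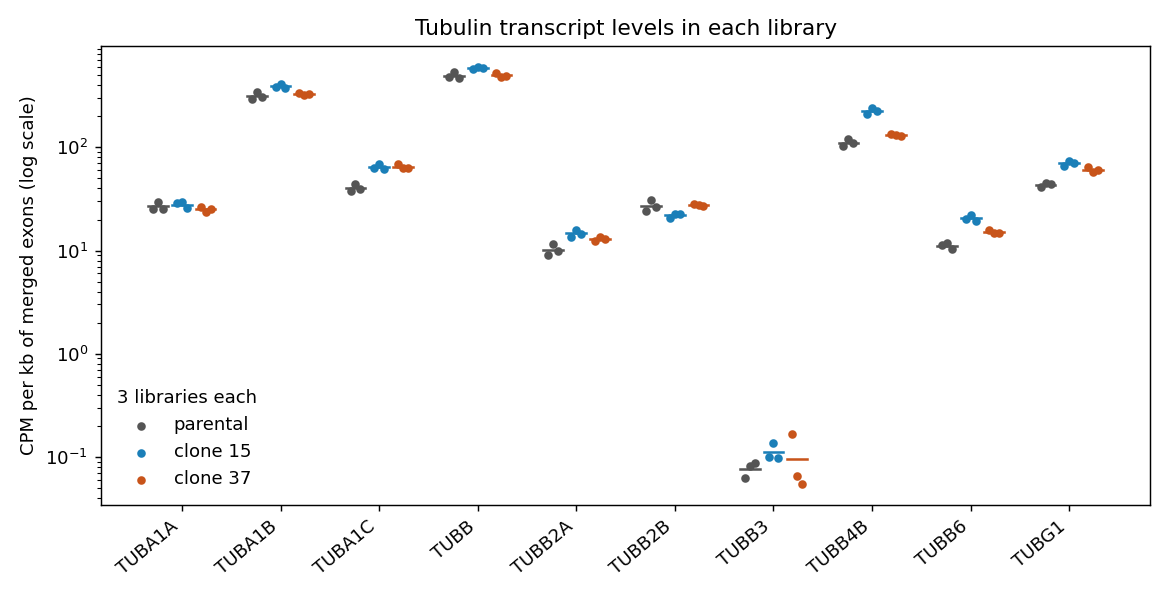
CPM per kb of merged exons on a log axis for the 10 members. Each point is 1 library and each bar a group mean of 3 libraries; TUBB, TUBA1B and TUBB4B are the highest in all groups, and TUBB3 lies below 1 CPM per kb in every library.

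In clone 37 against parental cells, which share a read length, 5 of the 9 members tested were called at an adjusted p under 0.05, and all 5 were higher. Among all 16501 genes tested, 54.0% were called, 26.7% as higher and 27.3% as lower, so the number of members called was near the background. The median log2 fold change was 0.22 over the 9 members and 0.02 over all genes. In clone 15 against parental cells 7 of 9 were called, 6 higher and 1 lower, beside 51.4% of 17703 genes (25.1% higher, 26.2% lower). The members' median there was 0.48 against 0.02 for all genes. In clone 37 against clone 15, 7 of 9 were called, 1 higher and 6 lower, beside 57.7% of 17712 genes (28.7% higher, 29.0% lower), with medians of -0.20 and -0.0015. The comparisons with parental cells share the parental libraries. Without parental replicate 2, the numbers called were 6 in clone 37 and 8 in clone 15, beside 10027 of 16870 and 9071 of 18911 genes. Against the median of the 100 tested genes around each member, 6 of 9 were called in clone 37 against parental cells, 3 higher and 3 lower, with a median of -0.002 over the members. That test called 7068 of 16501 genes, 3343 higher and 3725 lower. The same test gave 5 higher and 1 lower in clone 15 against parental cells (median 0.34), and 1 higher and 6 lower between the clones (median -0.19). It called 7455 of 17703 genes and 8962 of 17712 genes in those comparisons. TUBB3 did not pass the filter on low counts in any comparison.

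The α isotypes moved unequally: TUBA1C rose in both clones by nearly the same amount, TUBA1B rose in clone 15, and TUBA1A met the threshold in neither comparison with parental cells. TUBA1C, a broadly expressed α isotype, was at 173, 206 and 183 CPM in parental replicates 1, 2 and 3, at 294, 318 and 288 in clone 15 and at 321, 294 and 290 in clone 37. Every library of either clone lay above every parental library. It rose 1.58-fold in clone 37 (log2 0.66, SE 0.07, adjusted p = 5.89e-07) and 1.57-fold in clone 15 (log2 0.65, SE 0.09, adjusted p = 1.18e-06). Between the clones the difference was 0.01, with a 95% interval of -0.09 to 0.12 (adjusted p = 0.853), and its sign turned in 5 of 16 alternatives. Against a median of -0.13 for the genes around it the difference was 0.15 (adjusted p = 0.027). In both comparisons with parental cells TUBA1C passed the threshold under every alternative run, with log2 fold changes of 0.52 to 0.73 in clone 37 and 0.41 to 0.74 in clone 15.

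TUBA1B, the main α isotype of dividing cells, was at 1059, 1232 and 1096 CPM in parental cells, at 1382, 1474 and 1361 in clone 15 and at 1207, 1146 and 1175 in clone 37. The clone 15 libraries lay above all others, and those of clone 37 lay within the parental range. The log2 fold change was 0.28 in clone 15 (SE 0.10, adjusted p = 0.0233), 0.03 in clone 37 (95% interval -0.12 to 0.19, adjusted p = 0.752) and -0.25 between clone 37 and clone 15 (SE 0.05, adjusted p = 9.52e-05). With unstranded counts the last was -0.12 (adjusted p = 0.0879). The 100 tested genes around TUBA1B had a median log2 fold change of 0.24 in clone 15. Against that median TUBA1B differed by 0.04 (adjusted p = 0.758). The call in clone 15 was also lost without parental replicate 1 (0.21, adjusted p = 0.167) or 3 (0.23, adjusted p = 0.128). It was lost at smaller values with unstranded counts (0.15, adjusted p = 0.25) and once trends in GC content and length were removed (0.17, adjusted p = 0.202). Without parental replicate 2, the clone 37 value was 0.10 (adjusted p = 0.0408). The main TUBA1B transcript has 801 unshared words of 75 bases and 960 of 100 bases, and clone 15 was read at 100 bp. The part of read length in the comparisons with clone 15 was not tested.

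TUBA1A, the α isotype that is abundant in postmitotic neurons, was at 87.1, 101 and 87.3 CPM in parental cells, at 98.0, 100.1 and 88.0 in clone 15 and at 90.2, 81.8 and 86.0 in clone 37. The 3 groups overlapped. Log2 fold changes were 0.02 in clone 15 (95% interval -0.15 to 0.19) and -0.12 in clone 37 (-0.26 to 0.02), with adjusted p of 0.85 and 0.163. The genes around it had medians of 0.24 and 0.15, and against those TUBA1A differed by -0.22 (adjusted p = 0.0434) and -0.27 (adjusted p = 0.00561). Without parental replicate 3 the clone 37 value was -0.20 (adjusted p = 0.0441). Between the clones it was called at -0.15 (adjusted p = 0.0471), a call that was lost in 10 of 16 alternatives, among them the DESeq2 test (-0.14, adjusted p = 0.0847). Over the 16 it stood at -0.21 to -0.04.

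Among the β isotypes, TUBB4B rose most in clone 15, TUBB6 rose in both clones, and TUBB, the most abundant, met the threshold in neither comparison with parental cells. TUBB4B, a widely expressed β isotype that is also a main one in cilia, was at 220, 252 and 233 CPM in parental cells, at 444, 505 and 471 in clone 15 and at 285, 281 and 270 in clone 37. The groups did not overlap, with clone 37 between the other groups and nearer to parental cells. TUBB4B rose 1.97-fold in clone 15 (log2 0.98, SE 0.09, adjusted p = 2.14e-09) and 1.16-fold in clone 37 (log2 0.22, SE 0.06, adjusted p = 0.00731). Clone 37 was lower than clone 15 by -0.76 (SE 0.05, adjusted p = 1.16e-12). Measured against the genes around each member, TUBB6 (0.82) and TUBB2A (0.71) rose more than TUBB4B (0.66) in clone 15 against parental cells. The rise in clone 15 stayed past the threshold under every alternative run, at 0.66 to 1.06. The rise in clone 37 did not: the genes around TUBB4B on chromosome 9 had a median of 0.21, against which it differed by 0.01 (adjusted p = 0.949), and leaving out any of 4 of the 6 libraries gave log2 fold changes of 0.17 to 0.22 (adjusted p of 0.054 to 0.0981). The threshold was also missed, at a fold change close to that of the whole data, with unstranded counts (0.18, adjusted p = 0.0987) and after removal of GC and length trends (0.18, adjusted p = 0.0767).

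TUBB6, a β isotype that is usually scarce and alters microtubule stability when abundant, was at 46.9, 48.3 and 42.6 CPM in parental cells, at 83.5, 91.4 and 80.3 in clone 15 and at 65.2, 61.1 and 60.6 in clone 37. The groups did not overlap. It rose 1.81-fold in clone 15 (log2 0.86, SE 0.09, adjusted p = 1.35e-08) and 1.33-fold in clone 37 (log2 0.41, SE 0.07, adjusted p = 0.000113), and clone 37 was lower than clone 15 by -0.45 (adjusted p = 8.89e-07). All 3 calls held under every alternative run. The genes around TUBB6 on chromosome 18 had medians of 0.04 and -0.17 in the comparisons of clone 15 and clone 37 with parental cells. Without clone 15 replicate 3, the library with the highest fibroblast markers, the log2 fold change in clone 15 was 0.91.

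TUBB, the main β isotype of most cells in culture, was at 1603, 1800 and 1598 CPM in parental cells, at 1949, 2033 and 1965 in clone 15 and at 1756, 1633 and 1651 in clone 37. The clone 15 libraries lay above all others, and clone 37 overlapped parental cells. In clone 37 the log2 fold change was -0.02 with a 95% interval of -0.18 to 0.14 (adjusted p = 0.889), and against a median of 0.23 for the genes around it TUBB differed by -0.24 (adjusted p = 0.0227). In clone 15 it was 0.22 (SE 0.10, adjusted p = 0.0858), which passed the threshold with DESeq2 (0.0201), with all 9 libraries in 1 fit (0.0299), among protein-coding genes only (0.00758) and without parental replicate 2 (0.30, adjusted p = 0.000188). Clone 37 was lower than clone 15 by -0.23 (SE 0.05, adjusted p = 0.000225), under every alternative run.

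TUBB2A and TUBB2B, neighbouring near copies expressed mainly in neurons, went opposite ways in clone 15. TUBB2A was at 15.7, 20.1 and 17.2 CPM in parental cells, at 23.6, 27.5 and 25.2 in clone 15 and at 21.2, 23.1 and 22.2 in clone 37. All libraries of both clones lay above the parental ones. On the log2 scale it rose by 0.48 in clone 15 (adjusted p = 0.00104, SE 0.12) and by 0.29 in clone 37 (adjusted p = 0.0246, SE 0.10). The value in clone 15 lost its call once trends in GC content and length were removed (0.23, adjusted p = 0.129). The value in clone 37 lost it in 8 of 16 alternatives, among them DESeq2 (0.28, adjusted p = 0.0832) and the test against the genes around it (-0.002, adjusted p = 0.99). Between the clones all clone 37 libraries lay below those of clone 15, by -0.19 (95% interval -0.36 to -0.02, adjusted p = 0.0627), and against a median of 0.54 for the genes around it TUBB2A differed by -0.73 (adjusted p = 7.89e-08).

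TUBB2B was at 53.3, 68.5 and 57.6 CPM in parental cells, at 45.3, 49.6 and 49.3 in clone 15 and at 62.3, 61.2 and 59.2 in clone 37. Clone 15 was below all other libraries. TUBB2B fell by 0.35 on the log2 scale in clone 15 (SE 0.10, adjusted p = 0.0043), was -0.01 in clone 37 (95% interval -0.17 to 0.16, adjusted p = 0.964) and was higher in clone 37 than in clone 15 by 0.35 (SE 0.07, adjusted p = 5.36e-05). The genes around it had medians of 0.30 in clone 37 and -0.22 in clone 15 against parental cells and 0.54 in clone 37 against clone 15. Against these medians the clone 37 value was -0.30 (adjusted p = 0.00838), the clone 15 value was -0.13 (adjusted p = 0.285) and the difference between the clones was -0.19 (adjusted p = 0.0179). Gene copies were not measured here. Read length changes how much of this pair can be counted, and its part in these log2 fold changes was not tested.

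**Figure D3:**
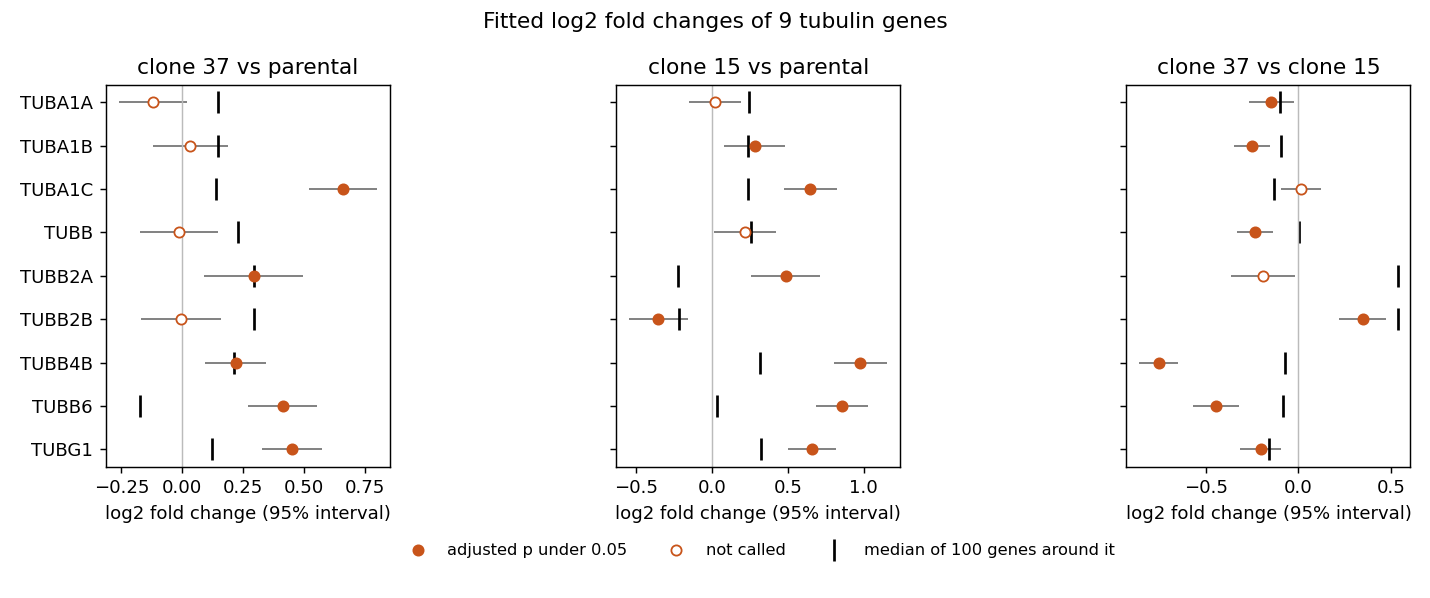
Fitted log2 fold changes of the 9 tested members in the 3 comparisons, with 95% intervals (bars); filled points have an adjusted p under 0.05. Black ticks are the median over the 100 tested genes around each member; TUBB4B (0.98) and TUBB6 (0.86) lie farthest to the right in clone 15, and TUBB2B lies left of 0.

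TUBB3, the β isotype used as a marker of neurons, was close to absent from the counts. It had 3, 5 and 5 counts in the parental libraries, 17, 15 and 8 in clone 15 and 8, 3 and 3 in clone 37, at most 0.730 CPM. It did not pass the filter on low counts. With no filter its log2 fold change was 0.24 in clone 37 (adjusted p = 0.811) and 0.48 in clone 15 (adjusted p = 0.606) against parental cells, and -0.25 between the clones (adjusted p = 0.769). In GENCODE 29, 89.5% of the bases of the main TUBB3 transcript lie under exons of ENSG00000198211, a protein-coding gene on the same strand that had 0 counts in all 9 libraries. Reads under both genes are ambiguous to a counter that assigns a read only where it overlaps 1 gene, and how many TUBB3 reads were left out in this way was not tested.

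TUBG1, the γ-tubulin gene, rose in both clones. It was at 100.0, 109 and 106 CPM in parental cells, at 161, 177 and 170 in clone 15 and at 155, 139 and 145 in clone 37. Both clones lay above all parental libraries, and clone 15 lay above clone 37. The rise was 1.58-fold in clone 15 (log2 0.66, SE 0.08, adjusted p = 2.34e-07) and 1.37-fold in clone 37 (log2 0.45, SE 0.06, adjusted p = 9.46e-06), and both calls held under every alternative run, at 0.34 to 0.71 and 0.33 to 0.49. The lowest values, 0.34 and 0.33, were those against the genes around TUBG1. The difference between the clones was -0.20 (SE 0.06, adjusted p = 0.00305). It was 0.01 once trends in GC content and length were removed (adjusted p = 0.896) and -0.04 against the genes around TUBG1 (adjusted p = 0.563), and -0.16 without clone 37 replicate 2 (adjusted p = 0.0534).

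Isotype make-up was then taken as each gene's share of its family, from CPM per kb over the 3 α members or the 6 β members in each library. Isotypes that are no members are outside these pools, among them TUBB4A, a β isotype at 45.2 to 49.2 CPM in parental cells, 48.1 to 58.7 in clone 15 and 27.5 to 29.8 in clone 37. TUBB4B took a larger part of the β pool in clone 15 while TUBB took a smaller one, and TUBA1C took a larger part of the α pool in both clones, most in clone 37. Of 9 shares, 8 had an unadjusted exact permutation p under 0.05 over the 3 groups (two-sided, smallest possible 0.00357), and 5 did with unstranded counts. Shares of a family sum to the whole, so these tests are not independent, and between any 2 groups of 3 such a test cannot go below 0.1. Shares rest on annotated exon length and on which stretches can be counted, and the latter differs with read length.

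In the α pool TUBA1C made up 10.4%, 10.6% and 10.6% in parental cells, 13.3%, 13.5% and 13.3% in clone 15 and 16.0%, 15.6% and 15.0% in clone 37 (exact permutation p = 0.00357). The 3 groups did not overlap. TUBA1B fell from a mean of 82.5% to 80.9% in clone 15 and 78.5% in clone 37 (exact permutation p = 0.00357), and TUBA1A went from 7.0% to 5.73% and 5.99% (exact permutation p = 0.00714). With unstranded counts the mean shares in parental cells, clone 15 and clone 37 were 55.7%, 54.6% and 52.6% for TUBA1B (permutation p = 0.225) and 27.3%, 23.8% and 23.1% for TUBA1A (permutation p = 0.05). For TUBA1C they were 17.1%, 21.7% and 24.2% in the same order (permutation p = 0.00357). The difference of TUBA1A between clone 37 and clone 15 was 0.26 points with stranded and -0.63 with unstranded counts. Lengths were also replaced by the number of words not shared at each library's own read length, a setting chosen after seeing the data. The mean TUBA1C shares were then 4.92% in parental cells, 7.07% in clone 15 and 7.45% in clone 37, so that the size of its share rests on the length used. Clone 37 exceeded parental cells by 2.53 percentage points in place of 4.98, and TUBA1B was lower there by -1.93 points in place of -3.98. The difference of TUBA1C between clone 37 and clone 15 was 2.20 points, and 0.38 in that setting. Its direction was the same in all 15 alternatives, at 0.38 to 2.63 points.

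In the β pool TUBB4B made up 16.6%, 16.8% and 17.4% in parental cells, 24.9%, 26.4% and 25.8% in clone 15 and 18.9%, 19.7% and 19.0% in clone 37 (exact permutation p = 0.00357). TUBB made up 75.6%, 67.7% and 72.7% in the means of parental cells, clone 15 and clone 37 (exact permutation p = 0.00357). For both genes the 3 groups did not overlap. The shift of TUBB4B in clone 15 was 8.75 points, and 6.50 to 9.60 over the 15 alternatives. Allowing for unshared words at each read length it was 8.85, with mean shares of 16.3% in parental cells and 25.2% in clone 15. TUBB6 went from 1.70% to 2.37% in clone 15 and 2.20% in clone 37 (exact permutation p = 0.00357). With the length of the longest transcript its mean shares were 2.83% in parental cells, 3.95% in clone 15 and 3.65% in clone 37. TUBB2B was at 4.14% in parental cells, 2.51% in clone 15 and 4.03% in clone 37 (exact permutation p = 0.0214), and TUBB2A at 1.56%, 1.69% and 1.87% (exact permutation p = 0.0286). For TUBB2A the permutation p was 0.0536 with unstranded counts, and 0.05 to 0.0821 when clone 15 replicate 2 or 3 or parental replicate 1 or 3 was left out. Allowing for unshared words at each read length, mean shares in the same order were 6.23%, 3.70% and 6.04% for TUBB2B and 3.00%, 3.09% and 3.59% for TUBB2A. The difference of clone 15 from parental cells was then -2.53 points in place of -1.63 for TUBB2B and 0.09 in place of 0.13 for TUBB2A. TUBB3 held 0.008% to 0.023% in single libraries (exact permutation p = 0.975).

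**Figure D4:**
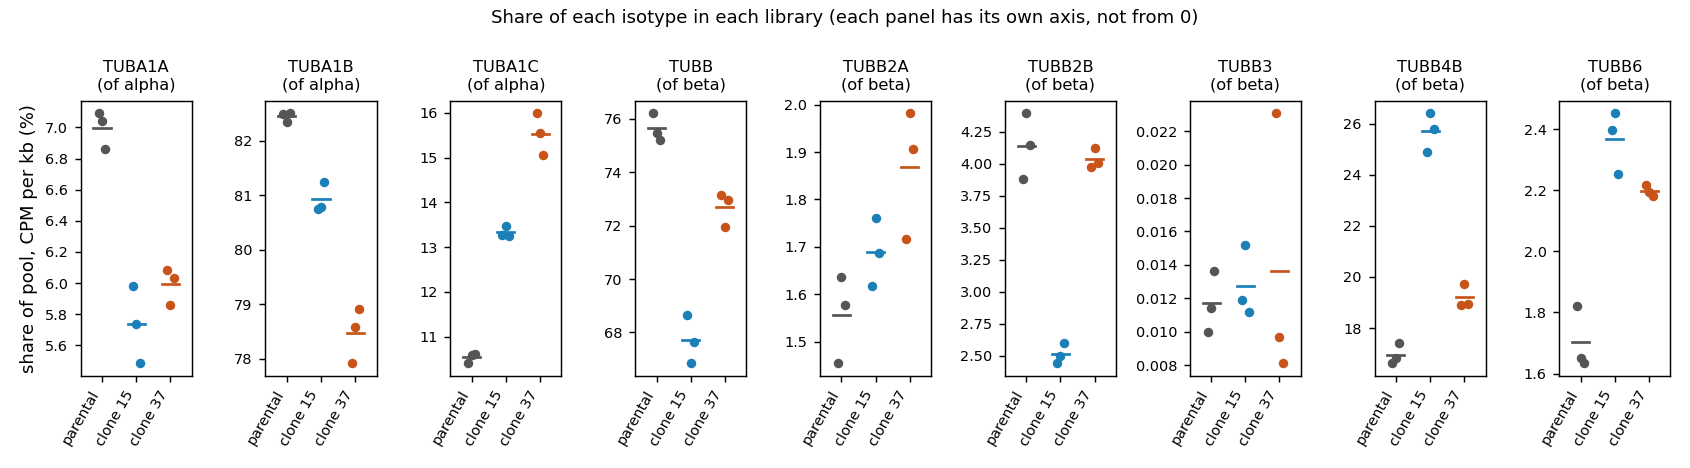
Share of each isotype in its family, in percent of summed CPM per kb, with 1 point per library and a bar at each group mean. Each panel has its own axis, which does not start at 0; clone 15 stands highest for TUBB4B (24.9% to 26.4%) and clone 37 highest for TUBA1C (15.0% to 16.0%).

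Summed over isotypes, tubulin mRNA was highest in clone 15. The α sum was 383 ± 31.3 CPM per kb in parental cells (SD, n = 3), 486 ± 21.7 in clone 15 and 419 ± 13.0 in clone 37, and the β sum was 656 ± 46.7, 872 ± 30.5 and 688 ± 23.0. Clone 37 overlapped parental cells in both sums. All 10 members held 0.354% of gene counts in parental cells, 0.459% in clone 15 and 0.381% in clone 37. The ratio of α to β was 0.574 to 0.590 in parental cells, 0.542 to 0.566 in clone 15 and 0.604 to 0.618 in clone 37, and the groups did not overlap. Within a library TUBB4B had on average 0.141, 0.239 and 0.166 counts for each TUBB count. TUBA1C had 0.166, 0.213 and 0.256 for each TUBA1B count, and TUBB2A had 0.296, 0.529 and 0.364 for each TUBB2B count. These sums and ratios were not tested. Clone 15 was read at 100 bp, where a larger part of the words of each member but TUBB6 is unshared. The part of read length in the sums and ratios was not tested either.

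Tubulin pseudogenes took few of the counts. Of 52 listed in GENCODE 29, 22 had at least 1 count in any library, led by TUBBP5 (101 to 517 counts per library) and TUBA5P (56 to 294). Pseudogenes of the α family held 0.298% to 0.542% of the α counts, and those of the β family 0.546% to 0.791% of the β counts. Strand made a larger difference to the counts. In GENCODE 29, 72.7% of the main TUBA1B transcript lies under exons of TUBA1B-AS1 on the opposite strand. Unstranded counting kept 13.6% to 17.3% of the stranded TUBA1B counts, 35.1% to 39.6% of those of TUBA1C and 62.7% to 66.6% of those of TUBB. The strand-aware counts were therefore used above, except where unstranded counts are named.

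The 2 members with the widest range of group means were TUBB4B and TUBB6, and other genes had nearly the same pattern over the 9 libraries. Among 12151 genes, those most like TUBB4B in log2 CPM were POLR2E, a subunit shared by RNA polymerases (Pearson r 0.997), UCHL1, a ubiquitin hydrolase (0.995), and ATP2A2, a calcium pump of the endoplasmic reticulum (0.994). Those most like TUBB6 were SLC25A4, a mitochondrial ADP/ATP carrier (0.995), SENP3, a SUMO protease (0.993), and CBR1, a carbonyl reductase (0.992). The points share libraries and fall into 3 groups, so these values describe a pattern of group means.

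Other genes of the microtubule system were counted in lists, read beside the 54.0% of all genes called in clone 37 (26.7% higher, 27.3% lower) and the 51.4% in clone 15 (25.1% higher, 26.2% lower). No test of a list was made. Of 13 other tubulin genes, 6 were tested in clone 37 against parental cells (1 called higher, 2 lower) and 7 in clone 15 against parental cells (2 higher, 2 lower). TUBA4A, an α isotype encoded without the C-terminal tyrosine, fell by 1.97 on the log2 scale in clone 37 (SE 0.22, adjusted p = 8.35e-07). It also fell by 0.72 in clone 15 (SE 0.17, adjusted p = 0.000779). The genes around it had medians of -0.38 in clone 37 and -0.42 in clone 15. Its level went from 8.23 ± 0.970 CPM in parental cells (SD, n = 3) to 2.15 ± 0.822 and 5.10 ± 0.541. TUBB4A, a β isotype of neurons and oligodendrocytes, fell by 0.77 in clone 37 (adjusted p = 2e-07) and stood at 0.10 in clone 15 (adjusted p = 0.365). TUBE1, the centriolar ε-tubulin, fell by 0.69 in clone 15 (adjusted p = 2.11e-06) and stood at -0.20 in clone 37 (adjusted p = 0.147).

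Of 15 factors that fold tubulin or turn over its mRNA, all tested, clone 37 had 6 called higher and 1 lower (median 0.17), and clone 15 had 7 higher and 0 lower (median 0.25). The 7 of 15 called in each clone are a smaller share than the 54.0% and 51.4% of all genes. TTC5 was the factor called lower. It fell from 46.5 ± 2.96 CPM in parental cells (SD, n = 3) to 27.5 ± 1.01 in clone 37, by 0.78 on the log2 scale (SE 0.08, adjusted p = 1.78e-07), and stood at 52.5 ± 2.32 in clone 15 (0.15, adjusted p = 0.164). The genes around TTC5 had a median of -0.42 in clone 37. Of the prefoldin subunits, which pass unfolded tubulin to the chaperonin, PFDN6 rose by 0.76 in clone 15 (adjusted p = 1.58e-05) and 0.31 in clone 37 (0.00534), PFDN1 rose by 0.57 in clone 15 (1.19e-05), and PFDN4 rose by 0.47 in clone 37 (0.000608). PFDN1 was not called in clone 37 (0.17, adjusted p = 0.082), nor PFDN4 in clone 15 (-0.01, adjusted p = 0.927).

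Of 11 genes of the γ-tubulin ring complex, in which TUBG1 works, the test called 4 higher and 5 lower in clone 37. In clone 15 it called 1 higher and 6 lower. Called genes were thus 9 of 11 and 7 of 11, beside 54.0% and 51.4% of all genes. MZT1, a small subunit needed for assembly of the complex, fell from 101 ± 10.1 CPM in parental cells (SD, n = 3) to 37.3 ± 1.71 in clone 37 (by 1.46 on the log2 scale, SE 0.08, adjusted p = 1.59e-10) and 71.1 ± 1.29 in clone 15 (by 0.54, SE 0.09, adjusted p = 1.55e-05). TUBGCP3, a structural subunit, fell by 0.50 in clone 37 (adjusted p = 2.54e-05) and by 0.49 in clone 15 (5.37e-05). MZT2A fell by 0.52 (9.5e-06) and 0.44 (0.000471), a value made uncertain by its near copy MZT2B. The genes around MZT1 had medians of -0.39 in clone 37 and -0.28 in clone 15. The medians were -0.45 and -0.26 around TUBGCP3, and -0.35 and -0.50 around MZT2A.

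Of 23 enzymes that modify tubulin, 18 were tested. In clone 37, 1 was called higher and 11 lower (median -0.25), beside 26.7% and 27.3% of all genes. In clone 15, 5 were called higher and 7 lower (median -0.06), beside 25.1% and 26.2%. Whether the clones differ in this count was not tested. TTLL1, a polyglutamylase of the tail, fell by 1.23 in clone 15 (adjusted p = 3.5e-07, SE 0.16) and by 0.79 in clone 37 (adjusted p = 0.000104, SE 0.14). VASH2, which removes the final tyrosine of α-tubulin, fell by 0.64 in clone 37 (adjusted p = 5.92e-06) and 0.65 in clone 15 (5.84e-06). AGBL3, a deglutamylase of the tail, fell by 1.12 in clone 37 (adjusted p = 8.24e-05) and stood at -0.27 in clone 15 (0.155), and the genes around it had a median of -0.79 in clone 37.

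Among 26 microtubule-binding and destabilising proteins, clone 37 had 3 called higher and 11 lower of 22 tested. Clone 15 had 4 higher and 10 lower of 23 tested. The medians were -0.20 and -0.18, and the shares of all genes called lower were 27.3% and 26.2%. DCLK1, a doublecortin-like kinase that binds microtubules, fell from 15.3 ± 0.934 CPM in parental cells (SD, n = 3) to 3.01 ± 0.336 in clone 37 (by 2.36 on the log2 scale, adjusted p = 6.87e-10) and 4.34 ± 0.214 in clone 15 (by 1.85, adjusted p = 9.56e-11). MAPRE2, a plus-end binding protein, fell by 1.35 in clone 37 (adjusted p = 2.14e-11) and stood at 0.05 in clone 15 (0.672). The genes around MAPRE2 had a median of -0.73 in clone 37. MAP1A, a neuronal microtubule-associated protein, rose by 1.21 in clone 15 (adjusted p = 3.37e-11) and by 0.25 in clone 37 (0.0117).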

How the data were processed

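The files deposited by the authors hold raw counts per gene, with an unstranded column and a pair of stranded ones, in 1 file for each of the 9 libraries. Per the labels' protocols, total RNA (500 ng) was depleted of ribosomal RNA, made into directional libraries with 13 cycles and read as paired ends. Per the submitters' processing notes, FastQC 0.11.9, STAR 2.7.10a and hg38 were used; the annotation release is not given in the sources used here. The 4 summary entries of each file stayed out of library sizes. Multimapping pairs, which are outside the gene counts, made up 4.59% to 13.9% of pairs, and pairs outside annotated exons 19.2% to 34.6%. Column 4 was used, since it held 92.6% to 94.0% of the stranded counts. Depth of 10334090 to 38093340 gene counts per library sets the precision of low genes.

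Of 60683 gene IDs, 60370 had a symbol and 58496 matched GENCODE 29, which supplied positions and sequences. Each comparison was fitted on its 6 libraries with edgeR 4.0.16 in R 4.3.3 (filterByExpr, TMM, glmQLFit with robust estimation, glmQLFTest), with Benjamini-Hochberg adjustment over all genes tested. Calls needed an adjusted p below 0.05. Standard errors were taken as the log2 fold change over the square root of F, and 95% intervals are 1.96 standard errors. The test against the 100 genes around a gene took their median as fixed. Its p values thus leave out the spread among those genes. CPM used the total gene counts. Shares were compared by exact permutation over 1680 arrangements. The members, lists, tests and alternatives were chosen with earlier results of these data known. Named genes beyond the members are, from each list but the markers, the 2 called genes with the largest fitted change in each comparison with parental cells at a mean of at least 5 CPM, and the 3 genes most like each of 2 members. Single markers, pseudogenes, near copies and overlapping genes are named outside this rule. Alternatives were RLE size factors, DESeq2 1.42.0, no filter, 1 CPM in 3 libraries, a replicate block, unstranded counts, 1 fit to all 9 libraries, protein-coding genes only, removal of GC and length trends, a test against the 100 genes around each gene, and leaving out each replicate. For shares, 2 settings were added after seeing the data, which used the main transcript's length or the words not shared at each read length. Markers of mature neurons summed to 44.4 to 52.6 CPM in parental cells, 32.2 to 33.6 in clone 15 and 43.4 to 45.0 in clone 37, and those of haematopoietic cells to 1.48 to 2.74 CPM over all libraries. Of 6 neuron markers, 0 were called higher and 4 lower in clone 15 against parental cells. In clone 37 against parental cells 1 was called higher and 1 lower. The α coding sequences are not reported here.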

Additional observations from a re-analysis of the deposited data

Results flagged for a closer look

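The effect relative to parental cells differed between the clones for 7 members, by the test of clone 37 against clone 15 (edgeR quasi-likelihood test, adjusted over all genes). TUBB4B had the widest difference in this test, -0.76 on the log2 scale, followed by TUBB6 at -0.45. TUBA1B differed by -0.25, TUBB by -0.23, TUBG1 by -0.20 and TUBA1A by -0.15. TUBB2B was the member that was higher in clone 37, by 0.35. Among all genes tested 57.7% differed between the clones, and read length differed with them. The TUBA1A call (adjusted p = 0.0471) was lost in most alternatives, and its libraries overlapped between the clones. The TUBG1 call was lost with GC and length trends removed. Against the genes around each member, TUBG1 stood at -0.04, TUBB2B at -0.19, TUBB4B at -0.68 and TUBB2A, which was not called in the main test, at -0.73.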

How the results depend on the processing

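The number of members called in clone 37 against parental cells was 5, and 3 with unstranded counts or with GC and length trends removed. Genes called in those settings were 8903 of 16501, 8355 of 18307 and 8795 of 16501. Against the genes around each member, 6 members were called, with 3 higher and 3 lower in place of 5 higher, and the members' median was -0.00196. Genes called there were 7068 of 16501. Members called ranged from 3 to 6 when single libraries were left out, and genes called from 7487 of 16783 to 10027 of 16870. In clone 15 against parental cells, 5 members were called with GC and length trends removed, beside 8658 of 17703 genes. Without single libraries 6 to 8 members were called, beside 7997 of 18731 to 9071 of 18911 genes. Shares with an exact permutation p under 0.05 numbered 8, 5 with unstranded counts, and 7 to 8 without single libraries. The replicate numbers gave no sign of pairing: same-numbered libraries correlated at -0.246 to 0.0857 and others at -0.178 to 0.184. With 3 libraries in each group, these values cannot exclude pairing. With a replicate block, members called stayed at 5, 7 and 7, and genes called were 8375 in clone 37 against parental cells, 8708 in clone 15 against parental cells and 10490 between the clones. Genes called stayed within 1.5 times under all alternatives. With GC and length trends removed, 4873 genes were higher and 3922 lower in clone 37 against parental cells, beside 4403 and 4500.

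Some log2 fold changes turned sign. Against the genes around a member, in clone 37 against parental cells, TUBA1B stood at -0.12 and TUBB2A at -0.00196. In clone 15 against parental cells, TUBA1A stood at -0.22 and TUBB at -0.042. In clone 37 against clone 15, TUBB2B stood at -0.19. With GC and length trends removed, TUBB in clone 37 was 0.0035, TUBA1A in clone 15 was -0.11, and between the clones TUBB2A was 0.011 and TUBG1 0.0083. TUBA1A in clone 15 was -0.016 with unstranded counts, TUBB2B in clone 37 was 0.0047 with the replicate block, and TUBA1C between the clones was -0.00092 without a filter and -0.0025 with at least 1 CPM in 3 libraries. Leaving out single libraries gave -0.034 to 0.099 for TUBA1B, -0.090 to 0.043 for TUBB and -0.087 to 0.10 for TUBB2B in clone 37, -0.046 to 0.12 for TUBA1A in clone 15, and -0.026 to 0.045 for TUBA1C between the clones. Apart from the removed trends and the changed reference, the cause was not tested. TUBB3 had 3 to 17 counts per library, and how far depth or the overlapping gene on its strand limits it was not tested.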
